A study of Mus musculus with 6 samples.

Results

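Interleukin-1 ligands, their antagonist and their receptors were followed through CD11b+ bone marrow cells of the mouse femur and mandible. The set held 6 of the 32285 genes in the deposited matrices, taken by symbol and chosen by values measured in these same libraries, namely levels over clusters and, for Il1b and Il1bos, the difference between the sites: the ligand genes Il1b and Il1a, the antisense transcript Il1bos at the Il1b gene, the receptor antagonist gene Il1rn, the decoy receptor gene Il1r2 and the receptor accessory protein gene Il1rap. All 6 were found in every library. The study compared myeloid cells of the 2 skeletal sites by single-cell RNA sequencing in 3 femur and 3 mandible libraries, each counted here as 1 replicate. Every library came from untreated wild-type C57Bl/6 mice of 2 months of age, enriched for CD11b, a surface integrin of neutrophils, monocytes and macrophages, with magnetic beads. Femur replicate 1 was female, and femur replicates 2 and 3 and all 3 mandible replicates were male. For the femur group the labels speak of femurs and tibiae and the methods of femurs alone, and mandibles were flushed after the molars had been taken out, together with the tooth sockets. How many mice went into a library is not stated, so p-values measure only the spread between these libraries.

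Interleukin-1 beta and interleukin-1 alpha are cytokines that start inflammation. Both bind the signalling receptor encoded by Il1r1, which then recruits the accessory protein encoded by Il1rap and signals through the adaptor Myd88 to NF-kB. The product of Il1rn occupies the receptor without signalling, and the product of Il1r2 binds the ligands as a decoy because it lacks a signalling domain. Interleukin-1 beta is made as an inactive precursor that caspase-1 cuts inside the inflammasome, so its transcript level does not give the amount of active cytokine. Neutrophils of the marrow carry Il1b and Il1r2 transcripts in their mature stages, and in bone interleukin-1 is known to promote osteoclast formation.

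The deposited metadata place 69776 kept cells in 9 clusters, and counts of unique molecular identifiers (UMIs) were summed per library and cluster and given as UMIs per 1000000 (CPM). CPM, folds of means and overlap between libraries rest on total UMIs alone. The edgeR log2 fold changes also use normalization factors between libraries (TMM), so they can differ from the folds of means in size and even in sign. Libraries held between 82962160 and 244946998 UMIs, and median depth per cell ran from 3894.5 UMIs in the B-labelled cells used below as a background to 21561 in cluster 4. A list of 7 neutrophil markers summed to between 158500 and 435500 CPM in clusters 0, 1, 2, 3, 4 and 7 and to between 67140 and 183000 CPM in cluster 5, which by the deposited reference labels was 50.8% monocytes and 34.4% neutrophils. Cluster 6 was the B lineage, with 5 B lineage markers at 6392 to 11980 CPM, and clusters 7 and 8 were small, with 94 to 278 and 11 to 160 cells in a library. Libraries shared between 15 and 70 cell barcodes, at most 0.651% of the smaller library. Clusters 6 and 8 are described by their levels alone, because a library there held as few as 39 and 11 cells.

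Il1b, which codes for interleukin-1 beta, was lower in mandibular-derived than in femur-derived cells in every tested cluster, with no overlap between the libraries of the sites. The gene lies on the minus strand of mm10 at chr2:129364570-129371139, where its main transcript has 7 exons. Cluster 1 held 57.9% of all 301252 Il1b UMIs, cluster 2 held 16.4%, cluster 0 held 11.99% and cluster 5 held 5.66%. In cluster 1 Il1b measured 3351, 1987 and 2174 CPM in femur replicates 1 to 3 and 1450, 1393 and 1060 CPM in mandible replicates 1 to 3. The lowest femur library stood above the highest mandible library, and the mean was 1.925-fold higher in the femur (2504 ± 739 against 1301 ± 211 CPM, SD, n = 3 per site). In cluster 2 the values were 1473, 880 and 802 CPM across femur libraries and 467, 494 and 316 CPM across mandible libraries. In cluster 3 they were 80.4, 131 and 61.1 CPM across femur libraries and 50.6, 31.2 and 26.9 CPM across mandible libraries. The study had named Il1b in these 3 clusters on the same libraries, and the site differences of Il1b and Il1bos were known when the set was chosen, so those of both genes are a description without a test in every cluster. The edgeR log2 fold changes of Il1b were -0.81 ± 0.25, -1.25 ± 0.27 and -1.28 ± 0.27 (SE) in clusters 1, 2 and 3. Femur replicate 1, the female library, was the highest for Il1b in clusters 1, 2, 5 and 7. Among the 5 male libraries the log2 fold change in cluster 1 was -0.54. Some lists of markers of other cells also differed between the sites without overlap. A list of 4 monocyte markers summed to 320 to 424 CPM in the femur against 512 to 643 CPM in the mandible in cluster 1 and to 526 to 667 against 748 to 853 CPM in cluster 2. The 4 neutrophil precursor markers summed to 272 to 367 against 172 to 237 CPM in cluster 0, where 4 erythroid markers summed to 11.3 to 14.7 against 34.5 to 151 CPM. A list of 3 markers of ameloblasts, the enamel-forming cells, lay between 6.998 and 1316 CPM in the tested clusters of the mandible and at or below 0.550 CPM in those of the femur. Whether these sums came from other cells or from the neutrophils themselves was not tested, and neither was their part in the Il1b values.

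**Figure D1:**
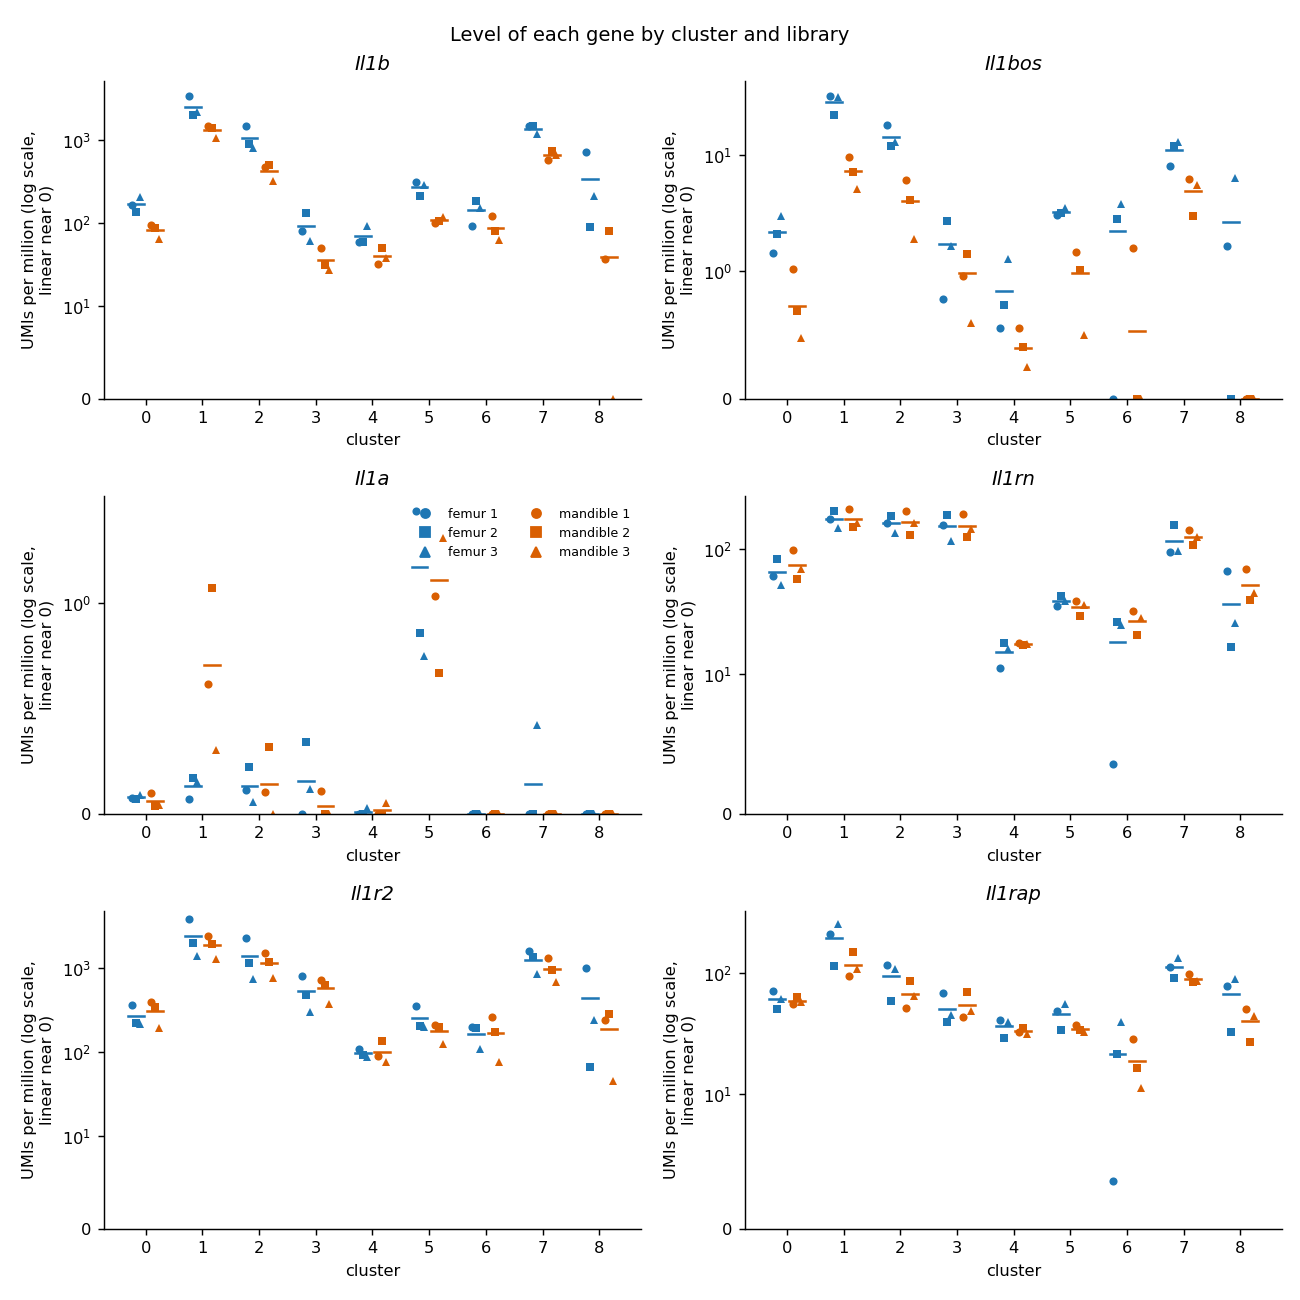
Level of each of the 6 genes in UMIs per 1000000 (y axis, log scale that is linear near 0) in clusters 0 to 8 (x axis), with 1 point per library (femur blue, mandible orange, marker shape for the replicate) and a bar at the group mean. Il1b points of the mandible lie below those of the femur in clusters 0, 1, 2, 3, 4, 5 and 7, while Il1rn, Il1r2 and Il1rap points overlap between the sites there.

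The other clusters gave the same order of the sites for Il1b. In cluster 5, which held most of the monocyte-labelled cells, Il1b measured 312, 209 and 285 CPM across femur libraries and 98.9, 106 and 119 CPM across mandible libraries. The log2 fold change there (-1.36 ± 0.19, SE) was close to that of cluster 3 (-1.28 ± 0.27). Of the 17045 Il1b UMIs in cluster 5, neutrophil-labelled cells held 14612 and monocyte-labelled cells held 1965. Neutrophil-labelled cells made up 316 of 1063, 473 of 1428 and 717 of 1443 cells across femur libraries. Across mandible libraries they made up 230 of 952, 399 of 1298 and 394 of 1170. The part of this mix in the Il1b difference was not tested. In cluster 7 the 3 femur libraries lay between 1162 and 1475 CPM and the 3 mandible libraries between 571 and 727 CPM (log2 fold change -0.96 ± 0.20). A list of 5 stromal or bone markers summed there to 9.34 to 72.1 CPM in the femur against 203 to 699 CPM in the mandible. In cluster 0, the most numerous of the neutrophil clusters, Il1b measured 167, 135 and 205 CPM across femur libraries and 95.1, 87.3 and 64.5 CPM across mandible libraries (log2 fold change -1.002 ± 0.23). In cluster 4, which was neutrophil-precursor-like by 4 markers, the femur libraries lay between 59.0 and 91.6 CPM and the mandible libraries between 32.5 and 50.1 CPM (log2 fold change -0.78 ± 0.23). T or NK cell markers summed there to 76.2 to 91.1 CPM in the femur against 101 to 131 CPM in the mandible. B lineage markers summed to 2.02 to 7.76 against 8.10 to 19.5 CPM, and stromal or bone markers to 2.98 to 4.25 against 6.37 to 9.98 CPM. Monocyte markers went the other way, at 788 to 815 against 742 to 785 CPM. Whether these sums came from other cells was not tested, and neither was their part in the Il1b values of clusters 4 and 7. Libraries without overlap and with lower mandible values made up 8.63% of all tested genes in cluster 0, 16.9% in cluster 1, 8.41% in cluster 2, 3.87% in cluster 3, 10.1% in cluster 4, 4.29% in cluster 5 and 7.91% in cluster 7. Il1b belonged to that share in 7 of 7 clusters, and its log2 fold change stayed below 0 in all 84 alternative fits. The Il1b site difference was known when the set was chosen and these fits reuse the same libraries. Neither count is therefore support for the difference.

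The other 4 members, Il1a, Il1rn, Il1r2 and Il1rap, gave 22 pairs of a member and a cluster, of which edgeR passed 0 at a false discovery rate of 0.05 and 0 had an unadjusted p under 0.05. The same threshold was passed over all genes by 0.0163% in cluster 0, 0.0842% in cluster 1, 0.0416% in cluster 2, 0.0108% in cluster 3, 0.0245% in cluster 4, 0% in cluster 5 and 0.0842% in cluster 7. At an unadjusted p under 0.05 the shares over all genes were 6.81%, 13.6%, 12.2%, 4.38%, 13%, 7.11% and 5.32% in the same order. DESeq2 on the same sums passed 0 of the 22 pairs, with 2 at an unadjusted p under 0.05, and between 0.337% and 2.62% of all genes in a cluster. Without the filter on low counts 1 of 28 pairs passed, Il1rap in cluster 1 as lower in the mandible. Over all genes 577 of 21828 passed there in cluster 1, and 0.0345% to 2.64% in a cluster. A further fit dropped 2 libraries (femur replicate 1, mandible replicate 3) and at once took the library number as a block. In it 4 of 22 passed, Il1r2 as higher in clusters 0, 1, 2 and 3. Over all genes 573 of 12461, 1587 of 11257, 1268 of 10191 and 499 of 9450 passed in these clusters, in the same order. The share in a cluster ran from 0.0361% to 14.1%, the lowest in cluster 5 (5 of 13836).

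**Figure D2:**
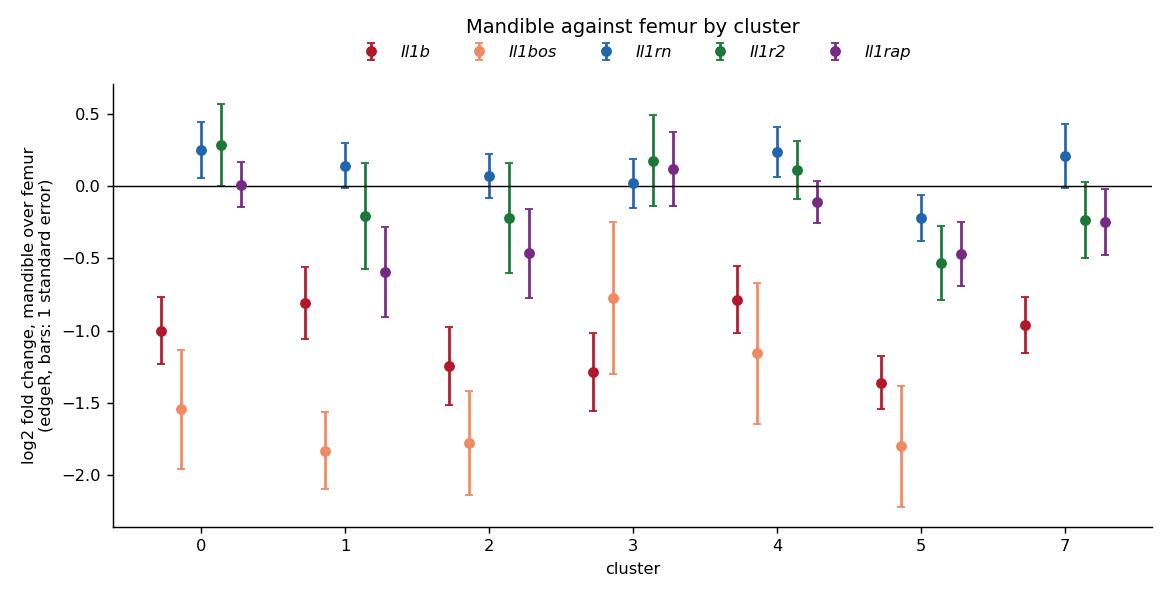
Log2 fold change of mandible over femur from edgeR (y axis, bars of 1 standard error, 3 libraries per site) for Il1b, Il1bos, Il1rn, Il1r2 and Il1rap in the 7 tested clusters (x axis). Il1b lies between -1.36 and -0.78 and Il1bos between -1.83 and -0.77, while Il1rn stays between -0.22 and 0.25.

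Single cells of cluster 1 showed the Il1b difference both in how many cells had a UMI and in how many UMIs a cell had. Among cells of cluster 1 an Il1b UMI was found in 89.6% ± 1.45 on the femur side and 71.4% ± 4.34 on the mandible side (SD, n = 3), and after thinning of each cell to 1000 UMIs in 71.9% ± 4.88 and 50.2% ± 5.09. The median cell held 15, 7 and 7 Il1b UMIs in the 3 femur libraries and 4, 4 and 2 in the 3 mandible libraries. In cluster 2 the thinned share was 47.0% ± 6.14 across femur libraries and 26.0% ± 3.73 across mandible libraries, and in cluster 5 it was 14.3% ± 2.24 and 5.97% ± 0.400.

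Free RNA in droplets adds UMIs to cells that do not make a transcript, so the B lineage served as a comparison for the clusters where Il1b was sparse. In cluster 6 the thinned share with an Il1b UMI was 7.39% ± 2.25 across femur libraries and 2.61% ± 1.31 across mandible libraries. Clusters 0, 3 and 4 had thinned shares of 10.1%, 8.07% and 5.20% in the femur and of 3.64%, 3.17% and 2.71% in the mandible, and over single libraries these shares overlapped those of cluster 6. Cluster 6 was itself 85.0% B cells and 13.7% neutrophils by reference label, so its share was not free of neutrophils. Its 858 B-labelled cells alone held Il1b at 12.5, 20.3 and 26.3 CPM across femur libraries and 12.6, 6.52 and 2.61 CPM across mandible libraries. These levels rest on 3 to 14 UMIs in a library and 42 in all, so the folds below are rough. The Il1b level of clusters 0, 3 and 4 was above that of the B-labelled cells in 6 of 6 libraries, by 6.66-fold to 24.8-fold in cluster 0, by 2.33-fold to 10.3-fold in cluster 3 and by 2.58-fold to 14.4-fold in cluster 4. How much of the difference between sites in clusters 0, 3 and 4 comes from free RNA was not tested.

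Il1bos is an antisense transcript that starts inside Il1b and runs away from it on the plus strand. It occupies chr2:129369897-129375748, shares 1243 bases with the Il1b gene, and has its first exon within intron 2 of the main Il1b transcript. The exons of the 2 transcripts shared 0 bases, and the 3′ ends, near which this chemistry reads, lay 11178 bases apart. A shorter Il1b transcript of 2 exons shared up to 25 exon bases with Il1bos, and whether counting used the strand is not stated, so reads of that stretch could not be told apart without it. The 250 bases before the start site of each are shown because the pair of transcripts was low together in mandible libraries. They are RefSeq sequence of GRCm38.p6, 5′ to 3′ along each gene, at chr2:129371140-129371389 on the minus strand for Il1b and at chr2:129369652-129369901 on the plus strand for Il1bos. Capitals mark a TATA box (TATAAA) and matches to the C/EBP pattern TTNNGNAA on either strand.
Il1b: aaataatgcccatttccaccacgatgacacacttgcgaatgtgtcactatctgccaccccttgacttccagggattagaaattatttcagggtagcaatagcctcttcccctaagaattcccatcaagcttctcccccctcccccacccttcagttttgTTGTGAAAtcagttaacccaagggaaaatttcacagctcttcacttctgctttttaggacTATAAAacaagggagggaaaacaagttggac
Il1bos: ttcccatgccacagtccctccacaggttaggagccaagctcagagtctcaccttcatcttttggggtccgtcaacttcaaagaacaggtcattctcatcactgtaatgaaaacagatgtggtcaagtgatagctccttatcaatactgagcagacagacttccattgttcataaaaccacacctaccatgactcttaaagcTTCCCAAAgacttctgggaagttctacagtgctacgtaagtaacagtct
Il1b had TATAAA 31 bases and a TTNNGNAA match 91 bases before its start, Il1bos had a TTNNGNAA match on the opposite strand 49 bases before its start, and Il1bos had no TATAAA in this window. Of 27025 promoters of the same length, 12.97% held TATAAA and 36.9% held TTNNGNAA, so the latter is a common match. Members that overlapped between the sites held these patterns too. Il1a had TATAAA 32 bases and TTNNGNAA 43 bases before its start, and Il1rn had TTNNGNAA matches. The other motifs searched, which are listed below for Il1r2, had no match in the Il1b or Il1bos window. A link of any motif to the site difference was not tested.

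**Figure D3:**
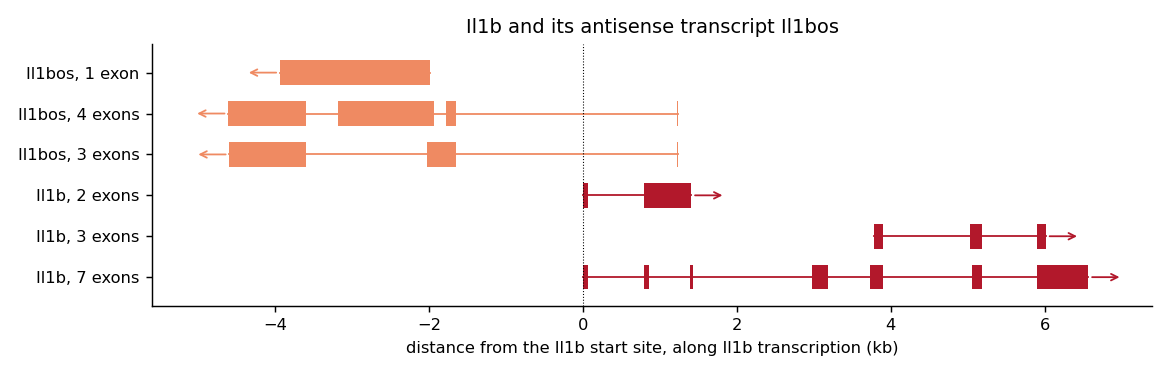
Annotated transcripts of Il1b (red) and Il1bos (orange) by distance from the Il1b start site in kb along Il1b transcription (x axis), with boxes for exons and arrows for the direction of transcription. The first exon of the 3-exon and 4-exon Il1bos transcripts lies between 1.22 and 1.24 kb inside Il1b.

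Il1bos was lower in the mandible without overlap in clusters 0, 1, 2 and 5, where 8.63%, 16.9%, 8.41% and 4.29% of all tested genes were. In cluster 1 it measured 32.7, 22.4 and 32.2 CPM in the femur, on 477, 394 and 855 UMIs, and 9.73, 7.21 and 5.10 CPM in the mandible, on 111, 48 and 34 UMIs. The femur mean was 3.965 times the mandible mean, and the edgeR log2 fold change was -1.83 ± 0.27 (SE). In cluster 2 Il1bos measured 18.5, 12.1 and 13.03 CPM across femur libraries and 6.08, 4.11 and 1.87 CPM across mandible libraries (log2 fold change -1.78 ± 0.36). In cluster 5 it measured 3.03, 3.18 and 3.53 CPM across femur libraries and 1.45, 1.00 and 0.500 CPM across mandible libraries (log2 fold change -1.80 ± 0.42). In cluster 4 it measured 0.549, 0.732 and 1.25 CPM across femur libraries and 0.549, 0.401 and 0.245 CPM across mandible libraries, so that the lowest femur and the highest mandible library, on 14 and 8 UMIs, were level to 3 digits. In cluster 3 the sites overlapped, on 4 to 28 UMIs in a library. In cluster 7 Il1bos did not pass the filter on low counts, and it measured 8.17, 12.02 and 13.05 CPM across femur libraries and 6.19, 2.99 and 5.52 CPM across mandible libraries. The B-labelled cells of cluster 6 held 0 Il1bos UMIs, which allows a share of up to 0.350% of 858 cells with a UMI.

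Il1bos relative to Il1b was also lower in the mandible in cluster 1. There the libraries held 9.77, 11.3 and 14.8 Il1bos UMIs per 1000 Il1b UMIs across femur libraries and 6.71, 5.18 and 4.82 across mandible libraries. The sites did not overlap there, and in clusters 2, 3 and 5 this ratio overlapped between them. The ratio is built from the 2 genes whose site differences were known, so it is a description as well. In cluster 2 the ratio was 12.5, 13.8 and 16.3 across femur libraries and 13.01, 8.325 and 5.92 across mandible libraries. In cluster 3 it leaned the other way, with 9.69, 20.8 and 27.0 across femur libraries and 19.0, 44.4 and 22.1 across mandible libraries, on 83 Il1bos UMIs in all. Cells with an Il1bos UMI held more Il1b than other cells of the same cluster and library. In cluster 1 of femur replicate 1 Il1b measured 5259 CPM in the 366 cells with an Il1bos UMI and 2890 CPM in the 1830 cells without one, at median depths of 6504 and 6071 UMIs. In cluster 1 of mandible replicate 1 it measured 3107 CPM in 100 cells and 1357 CPM in 1846 cells, at median depths of 5072.5 and 5124.5 UMIs. Il1b was higher in the cells with Il1bos in 12 of 12 sums of a library in clusters 1 and 2, by 1.61-fold to 2.71-fold. Depth was not matched in every sum: in cluster 2 of mandible replicate 3 the 14 cells with Il1bos had a median of 9454 UMIs and the other cells 5384.

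**Figure D4:**
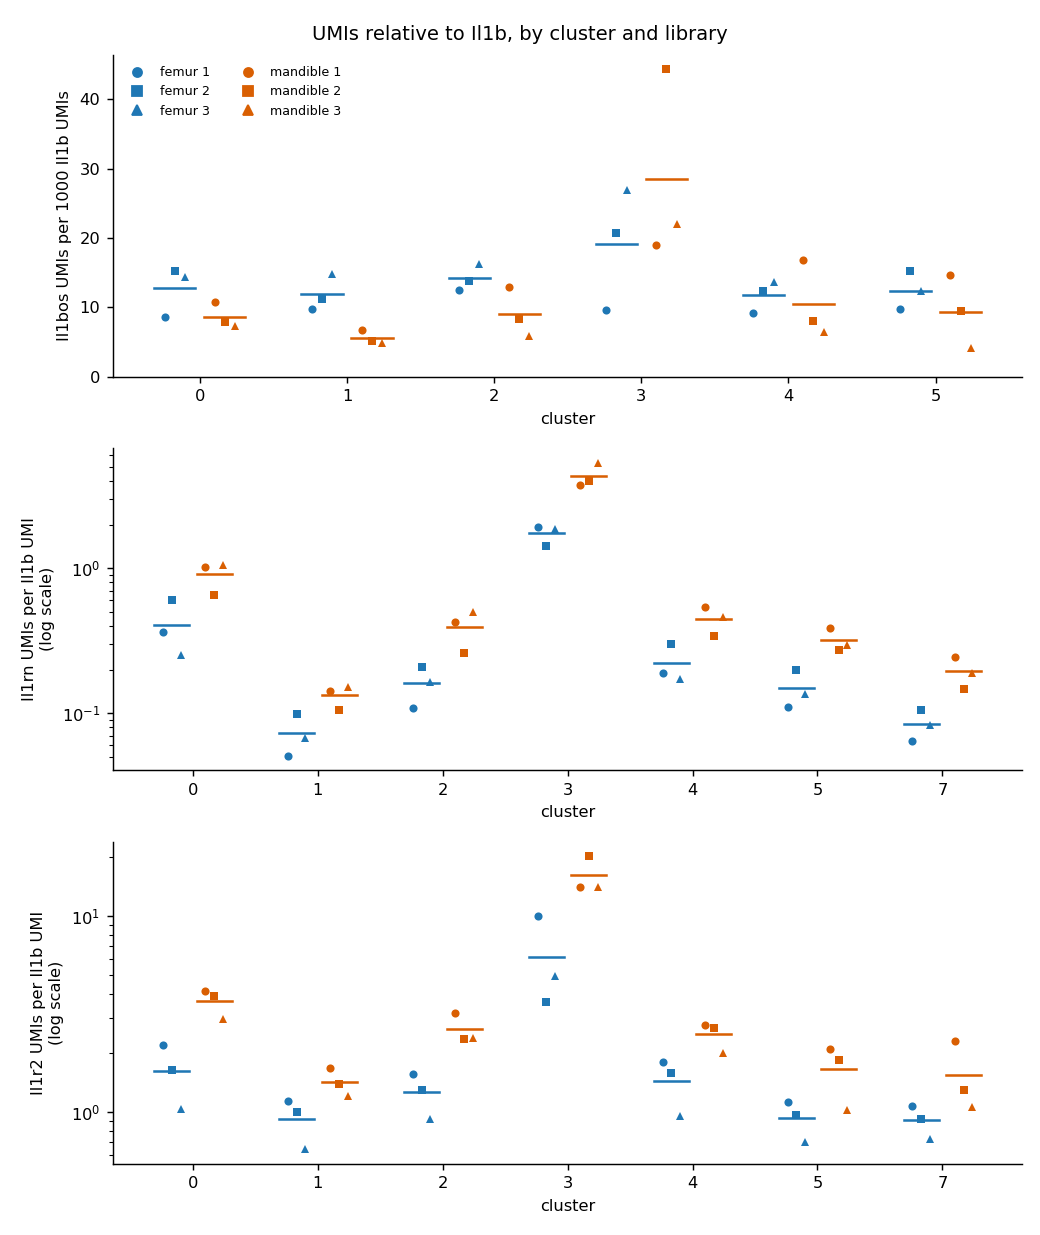
Il1bos UMIs per 1000 Il1b UMIs, Il1rn UMIs per Il1b UMI and Il1r2 UMIs per Il1b UMI (y axes, the lower pair on a log scale) by cluster (x axis), with 1 point per library (femur blue, mandible orange) and a bar at the group mean. In cluster 1 the Il1bos ratio of the mandible lies between 4.82 and 6.71 and that of the femur between 9.77 and 14.8, and the Il1rn ratio of the mandible lies above that of the femur in every cluster shown.

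Il1a, which codes for interleukin-1 alpha, was rare, with 179 UMIs in 69776 cells. The gene lies on the minus strand at chr2:129299610-129309972. Cluster 5 held 65.9% of these UMIs, at 3.03, 0.856 and 0.746 CPM across femur libraries and 1.08, 0.668 and 2.19 CPM across mandible libraries. In mandible replicate 3 a single cell held 23 of the 35 Il1a UMIs of the cluster. The sites overlapped (log2 fold change -0.17 ± 0.63, edgeR adjusted p = 0.96). Within cluster 5 the 482 cells with the reference label of macrophages held Il1a at 21.9, 13.96 and 22.1 CPM across femur libraries and 19.6, 4.304 and 17.3 CPM across mandible libraries, on 63 UMIs. The 2529 neutrophil-labelled cells held 48 Il1a UMIs and the 3734 monocyte-labelled cells held 4. The neutrophil-labelled cells measured 3.53 CPM in mandible replicate 3, the library of the cell with 23 UMIs. In the other libraries they measured 0.225 to 1.19 CPM. A list of 4 macrophage markers summed over cluster 5 to 2239 CPM in femur replicate 1, the library with the highest Il1a, and to between 316 and 758 CPM in the other libraries, and their part in the Il1a level was not tested. Cluster 6 held 0 Il1a UMIs in 1009 cells, which allows a share of up to 0.297% of cells with a UMI.

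The Il1a gene is overlapped by Gm14023, a transcript of the opposite strand at chr2:129297370-129307826 that shares 8217 bases with it. Gm14023 had 6616 UMIs and was higher in the mandible in cluster 1, where it measured 9.33, 15.1 and 7.47 CPM across femur libraries and 32.1, 21.04 and 23.3 CPM across mandible libraries. The sites did not overlap (log2 fold change 1.42 ± 0.25, edgeR adjusted p = 0.078), and in cluster 2 the log2 fold change was 1.02 ± 0.23 (edgeR adjusted p = 0.14). Il1a itself had 8 UMIs in cluster 1 of the femur and 17 in cluster 1 of the mandible, too few for the test.

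Il1rn, which codes for the interleukin-1 receptor antagonist, did not differ detectably between the sites over the whole of any tested cluster. The gene lies on the plus strand at chr2:24336853-24351494. In cluster 1 it measured 171, 198 and 146 CPM across femur libraries and 207, 148 and 160 CPM across mandible libraries, with means of 172 ± 26.0 and 172 ± 31.4 CPM (SD, n = 3). In cluster 3 the means were 152 ± 36.1 and 152 ± 33.3 CPM, and in cluster 2 they were 159 ± 25.7 and 162 ± 35.1 CPM. The libraries overlapped in 7 of 7 clusters. Over all tested genes, libraries without overlap and with higher mandible values made up 2.47%, 4.88%, 6.48%, 3.84%, 5.9%, 7.32% and 2.83%, and without overlap in either direction 11.1%, 21.8%, 14.9%, 7.71%, 16%, 11.6% and 10.7%, in clusters 0, 1, 2, 3, 4, 5 and 7. For Il1rn the log2 fold changes ran from -0.22 to 0.25 with SEs of 0.15 to 0.22. Il1rn UMIs were spread more evenly over the neutrophil clusters than Il1b UMIs, with 27.9% in cluster 0, 25.5% in cluster 1, 18.2% in cluster 2 and 15.8% in cluster 3. In the B-labelled cells of cluster 6 Il1rn measured 4.21 CPM.

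Il1r2, the decoy receptor gene on the plus strand at chr1:40074079-40125231, overlapped between the sites in 7 of 7 tested clusters. In cluster 1 it measured 3784, 1974 and 1401 CPM across femur libraries and 2411, 1929 and 1280 CPM across mandible libraries (log2 fold change -0.21 ± 0.37, edgeR adjusted p = 0.87). In cluster 2 it measured 2299, 1137 and 735 CPM across femur libraries and 1494, 1167 and 749 CPM across mandible libraries (log2 fold change -0.22 ± 0.38, edgeR adjusted p = 0.88). Femur replicate 1 was the highest library in both clusters, and without it the log2 fold changes turned to 0.31 and 0.34. Leaving out mandible replicate 3 also turned them, to 0.01 and 0.03. Of the male libraries, 4 carry a number, 6 or 7, in their names that a femur and a mandible library share. Within both of these pairs the mandible library was the higher for Il1r2 in clusters 0, 1, 2 and 3, by 0.29 to 1.06 on the log2 scale of CPM, and the fit to these 4 libraries with that number as a block passed Il1r2 as higher there. Over all genes the same fit passed 573 of 12461, 1587 of 11257, 1268 of 10191 and 499 of 9450 in clusters 0, 1, 2 and 3. That fit changed the libraries and the block together, so their parts cannot be told apart. In cluster 3 Il1r2 measured 799, 477 and 300 CPM across femur libraries and 711, 628 and 376 CPM across mandible libraries, and in cluster 5 it measured 349, 202 and 200 CPM and 207, 195 and 122 CPM. The 858 B-labelled cells of cluster 6 held Il1r2 at 14.03 CPM.

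Il1r2 shares its locus with another transcript. Gm16894, an antisense transcript at chr1:40076228-40085851 on the minus strand, lies wholly within the GENCODE span of Il1r2, with 9624 shared bases, while RefSeq starts Il1r2 further downstream, at base 40086093, which is 242 bases from the Gm16894 start. Whether counting used the strand is not stated, so reads of the pair cannot be told apart without it. The window before the RefSeq start of Il1r2 holds the start of Gm16894. The window is shown for that reason, as 250 bases of RefSeq sequence of GRCm38.p6 at chr1:40085843-40086092 on the plus strand, with CACGTG (an E-box, searched for after the sequence had been seen) in capitals.
Il1r2: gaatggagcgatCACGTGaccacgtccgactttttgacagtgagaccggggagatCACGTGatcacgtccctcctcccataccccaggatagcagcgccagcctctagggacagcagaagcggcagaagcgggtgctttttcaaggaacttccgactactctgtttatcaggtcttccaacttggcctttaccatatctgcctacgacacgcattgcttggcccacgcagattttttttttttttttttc
CACGTG occurred at 238 and 195 bases before the Il1r2 start and in 6.05% of 27025 promoter windows, and the other motifs searched, the TATA box (TATAAA), the AP-1 pattern (TGANTCA), TTNNGNAA for C/EBP, TGACGTCA for CRE, GAGGAAGT for PU.1 and the NF-kB and ISRE patterns, had no match on either strand here. In cluster 1 Gm16894 measured 230, 167 and 70.0 CPM across femur libraries and 90.8, 51.5 and 20.1 CPM across mandible libraries. Within each site its libraries stood in the same order as those of Il1r2, from replicate 1 as the highest to replicate 3 as the lowest. The sites overlapped for Gm16894 in cluster 1 (log2 fold change -1.36 ± 0.52, edgeR adjusted p = 0.30) and did not in cluster 5, with 17.2, 15.8 and 11.6 CPM across femur libraries and 7.86, 6.35 and 4.499 CPM across mandible libraries (log2 fold change -1.28 ± 0.23, edgeR adjusted p = 0.53).

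Il1rap, which codes for the shared accessory chain of the interleukin-1 receptor, lies on the plus strand at chr16:26581704-26730117. It measured 211, 116 and 254 CPM in cluster 1 of the femur and 94.9, 150 and 108 CPM in cluster 1 of the mandible. The libraries overlapped through femur replicate 2 and mandible replicate 2 (log2 fold change -0.60 ± 0.31, edgeR adjusted p = 0.45, or 0.0098 without the filter on low counts). In cluster 5 it measured 48.5, 34.2 and 55.9 CPM across femur libraries and 37.6, 33.9 and 33.0 CPM across mandible libraries (log2 fold change -0.47 ± 0.22, edgeR adjusted p = 0.72). The sites overlapped in 7 of 7 clusters. Cluster 0 held 30.2% of Il1rap UMIs, cluster 1 held 30.1% and cluster 4 held 12.9%. Il1r1, the signalling receptor to which the accessory chain binds, was near the limit of detection, with 76 UMIs in cluster 1 and a mean of 1.00 CPM there.

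With Il1b lower and Il1rn and Il1r2 overlapping, the balance of their UMIs differed between the sites in several clusters. Il1rn UMIs per Il1b UMI in cluster 1 were 0.0510, 0.0996 and 0.0671 across femur libraries and 0.143, 0.106 and 0.151 across mandible libraries, without overlap. In cluster 3 they were 1.93, 1.43 and 1.88 across femur libraries and 3.73, 3.98 and 5.35 across mandible libraries. Il1r2 UMIs per Il1b UMI in cluster 1 were 1.13, 0.994 and 0.644 across femur libraries and 1.66, 1.385 and 1.21 across mandible libraries, again without overlap. In cluster 3 they were 9.93, 3.65 and 4.91 across femur libraries and 14.03, 20.1 and 13.98 across mandible libraries. The Il1r2 ratio overlapped between the sites in clusters 5, 6 and 7, with 0.6997 to 1.117 across femur libraries and 1.03 to 2.09 across mandible libraries in cluster 5. Both ratios share the Il1b counts as their base, so they repeat the Il1b difference and were not tested apart from it. Cluster 3 differed from cluster 1 in both ratios in every library of either site, with Il1rn and Il1r2 present and Il1b low.

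**Figure D5:**
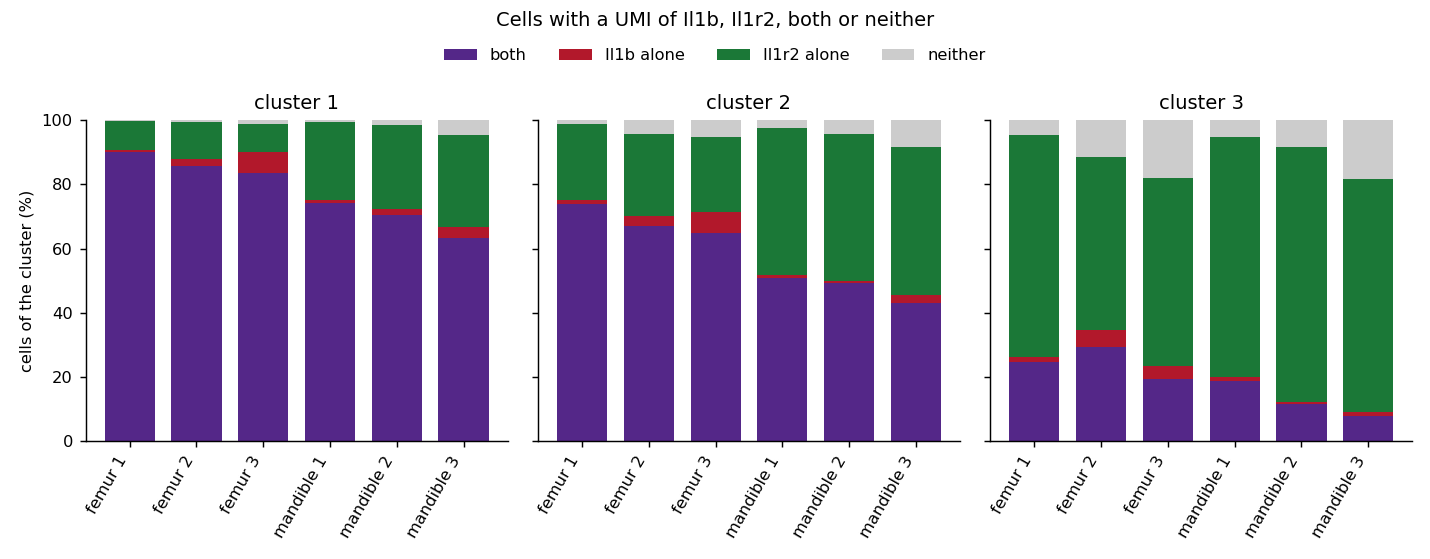
Share of cells (y axis, percent of the cells of the cluster) with a UMI of both Il1b and Il1r2, of Il1b alone, of Il1r2 alone or of neither, in clusters 1, 2 and 3 of each library (x axis). Cells with Il1r2 alone make up 8.60% to 11.4% of cluster 1 in the femur libraries and 24.2% to 28.7% in the mandible libraries.

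Cell by cell, a larger share of mandible neutrophils in clusters 1 and 2 had the decoy receptor transcript and no detected Il1b. In cluster 1 cells with an Il1r2 UMI and no Il1b UMI made up 8.93%, 11.4% and 8.60% of the femur libraries and 24.2%, 26.2% and 28.7% of the mandible libraries. In cluster 2 they made up 23.6%, 25.6% and 23.6% across femur libraries and 45.8%, 46.0% and 46.2% across mandible libraries. The sites did not overlap in either cluster, and these shares are as counted, at median depths of 3827 to 6153.5 UMIs in cluster 1. Between 92.0% and 99.1% of cells of cluster 1 in a library had an Il1r2 UMI, so there the share with Il1r2 alone is close to the share without Il1b and restates the Il1b difference. No detected UMI does not show that a cell lacks the transcript.

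In cluster 5 the Il1b level depended on the reference label. Its 3734 monocyte-labelled cells held Il1b at 79.1, 58.0 and 80.5 CPM across femur libraries and 52.5, 29.8 and 23.1 CPM across mandible libraries. Its 2529 neutrophil-labelled cells held 768, 418 and 384 CPM across femur libraries and 184, 204 and 215 CPM across mandible libraries. Neutrophil markers summed over cluster 5 to between 67140 and 183000 CPM in the femur and between 80630 and 115700 CPM in the mandible, so the sites overlapped in them. Il1rn measured 9.42, 7.41 and 10.7 CPM in the monocyte-labelled cells of the mandible and 13.4, 18.9 and 14.7 CPM in those of the femur, without overlap. The B-labelled cells of cluster 6 held 3.26 to 5.81 CPM. In the 482 macrophage-labelled cells Il1rn measured 11.8, 4.304 and 8.64 CPM in the mandible and 39.0, 15.5 and 17.7 CPM in the femur. These did not overlap either, on 76 UMIs. The neutrophil-labelled cells overlapped, at 56.2 to 86.8 CPM in the mandible against 50.7 to 74.2 CPM in the femur. The share of all genes without overlap was not computed for cells of a single label. The values by label are therefore a description. When edgeR was fitted to the monocyte-labelled cells alone, 0 members passed, where 11 of all 11364 tested genes did. An unadjusted edgeR p under 0.05 was reached by 1502 of these genes. The log2 fold change of Il1rn in that fit was -0.81 against -0.22 over the whole cluster. Whether the site difference itself was larger in cluster 5 than in cluster 1 was tested with limma on the difference within each library. For Il1b the site difference of cluster 5 minus that of cluster 1 was -0.55 ± 0.27 on the log2 scale (SE) and for Il1bos 0.14 ± 0.23, both as a description. Over all genes 0 of 10383 passed (0%), with Il1r2 at -0.40 ± 0.23 and Il1rn at -0.33 ± 0.19 (limma adjusted p = 0.62 for both) and Il1rap at 0.13 ± 0.26 (limma adjusted p = 0.90).

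Other genes of the pathway showed no difference that passed the test. Of 49 genes in 5 hand-written lists (other ligands and binding proteins, other receptors, maturation and release, signalling and transcription factors), 287 pairs of a gene and a cluster were tested by edgeR and 0 passed in either direction, while 34 had an unadjusted p under 0.05, 17 of them higher and 17 lower in the mandible. That is 11.8% of the pairs, where the share over all genes lay between 4.38% and 13.6% in a cluster. Libraries did not overlap for 6.82%, 26.2%, 17.9%, 15.4%, 20.5%, 11.4% and 14.3% of the tested genes of the lists in clusters 0, 1, 2, 3, 4, 5 and 7, where the shares over all genes were 11.1%, 21.8%, 14.9%, 7.71%, 16%, 11.6% and 10.7%. The study named Nfkbiz, of the list of transcription factors, as increased in the mandible in clusters 1 to 3. It was higher there at an unadjusted edgeR p under 0.05 in clusters 0, 1, 3, 4 and 7. In cluster 2 Nfkbiz was also among the genes of its list with such a p, of which 2 were higher and 1 was lower. Nfkbiz and the next 4 genes were picked after their values were seen. Nfkbia, the inhibitor of NF-kB that NF-kB itself induces, measured 162 ± 5.26 CPM across femur libraries and 237 ± 1.24 CPM across mandible libraries in cluster 1 (SD, n = 3, log2 fold change 0.69 ± 0.12, edgeR adjusted p = 0.078). Myd88, the adaptor below the receptor, measured 124 ± 9.95 and 87.7 ± 4.87 CPM there (log2 fold change -0.36 ± 0.14, edgeR adjusted p = 0.32). Il18, a ligand of the same family that caspase-1 also cuts, measured 13.2 ± 0.856 and 9.10 ± 0.0844 CPM (log2 fold change -0.40 ± 0.16, edgeR adjusted p = 0.31). Il1rapl1, a relative of the accessory chain, was sparse and measured 1.78, 5.12 and 2.75 CPM across femur libraries and 1.23, 1.05 and 0.750 CPM across mandible libraries in cluster 1 (log2 fold change -1.48 ± 0.44, edgeR adjusted p = 0.20). Il1rapl1 was lower in the mandible without overlap in clusters 0, 1, 2, 3 and 4, and Nfkbia, Myd88 and Il18 did not overlap in cluster 1 either. Casp1, the gene for caspase-1, measured 27.5 ± 4.76 and 26.0 ± 3.62 CPM in cluster 1 and overlapped. The most abundant gene of each list in cluster 1 was Il1f9 at 490 CPM, Il18rap at 294 CPM, Nlrp3 at 419 CPM, Tab2 at 166 CPM and Cebpb at 1326 CPM. In cluster 5 it was Il1f9 at 59.5 CPM, Il18rap at 72.9 CPM, Pycard at 170.4 CPM, Tab2 at 190.1 CPM and Cebpb at 688 CPM. Il1rl1, the receptor of interleukin-33, measured 134 CPM in the 53 basophil-labelled cells, on 49 UMIs.

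The genes whose levels followed each member most closely over the 54 sums of a library and a cluster were ranked by Pearson's r of log2(CPM + 1) among 7182 genes with a mean of at least 10 CPM. The sums share libraries and clusters, so the values of r are a description and carry no test. The ranking depended on the measure: by Spearman's rho 3 of the top 5 genes for Il1b, 3 of 3 for Il1bos, 2 of 5 for Il1rn, 3 of 5 for Il1r2 and 0 of 5 for Il1rap stayed in the list. Il1b was followed by Fgl2 (r = 0.94), Prr5l (0.89), Ifitm1 (0.88), Gla (0.87) and Hcar2 (0.87), and with Il1bos its r was 0.86. Il1bos was followed by Ifitm1 (0.89), Fgl2 (0.89) and Gm5150 (0.87). Il1rn was followed by genes that included Ddx60 (0.97), Trpm2 (0.96) and Slc2a3 (0.95), a glucose transporter. Il1r2 was followed by Ets2 (0.96), Rab7 (0.96), Acod1 (0.95), Srgn (0.95) and Entpd1 (0.95). Il1rap was followed less closely, by Tnfaip2 (0.88), Ston2 (0.85), Dmxl2 (0.84), Pilra (0.83) and Osgin1 (0.83). Il1b and Il1rn, the agonist and its antagonist, had an r of 0.51 with each other, below the 0.82 between Il1rn and Il1r2.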

How the data were processed

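Single-cell RNA sequencing was available for 3 femur and 3 mandible libraries. Per the labels and headers, the authors made raw UMI counts per gene and barcode with Cell Ranger (7.0.1 in the submitters' processing notes, 7.1.0 in the matrix header) on mm10, without pooling. Whether introns or strand were used is not given in the sources used here. The metadata deposited by the authors give UMI and gene counts per kept cell, the percent of mitochondrial UMIs, other values such as phase and cell type labels, and scores. Cells had passed a filter of 600 to 6000 genes and at most 20 percent mitochondrial UMIs, and the authors clustered them after SCTransform and integration. The integration shaped the clusters but left the counts as they were. The deposited marker table (log2 fold changes and a p-value per cluster against other cells) was not used.

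For each library and cluster, raw counts were added up over kept cells. Sites were compared with edgeR 4.0.16 (R 4.3.3, quasi-likelihood test, TMM, default filter on low counts, Benjamini-Hochberg over all genes, false discovery rate 0.05), in clusters 0 to 5 and 7. DESeq2 1.42.0 and the other alternatives are given in the closing section, and limma 3.58.1 (prior count 2) tested cluster 5 against cluster 1. Scripts were tested on simulated data. An exact permutation test planned for the Il1bos to Il1b ratio is not reported, because the choice of the set used both genes. Thinned shares are the expected share at 1000 UMIs per cell. No doublet caller was run. Fits without the cells above the 95th percentile of UMIs of each library cannot replace one. That cut lay between 23427.5 and 29518 UMIs, while the median cell held 4591, 5757 and 7000 UMIs in clusters 1, 2 and 3. Doublets of such cells can stay below it. Limits from a count of 0 use 3 counts and cover counting error only.

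The members and lists were chosen with earlier results of these data known. Genes named are the 6 members, their neighbours that overlap them, Il1r1, Il1rl1 and Casp1, the most abundant gene of each pathway list, and the genes most like each member, of which some for Il1rn are not reported here. Nfkbia, Nfkbiz, Myd88, Il18 and Il1rapl1 were picked after their values were seen. Positions are from GENCODE release M21.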

Additional observations from a re-analysis of the deposited data

How the results depend on the processing

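Over the 7 tested clusters, DESeq2 passed 1, 2, 2, 1 and 1 members in clusters 0, 1, 2, 3 and 5 and 1 in cluster 7, without the low-count filter 1, 3, 2, 1, 1, 1 and 1 passed in clusters 0, 1, 2, 3, 4, 5 and 7, and edgeR with its filter passed 0. Without the filter Il1rap passed in cluster 1 as lower in the mandible. The DESeq2 calls were Il1b and Il1bos, whose site differences were known when the set was chosen, so they support nothing. Leaving out any 1 library passed 0 members in each cluster and in the test of cluster 5 against cluster 1. Cells above the 95th percentile of UMIs left out, or the main reference label alone, also passed 0. Over all genes in a cluster these 2 settings passed 0% to 0.095% and 0.0108% to 0.0968%. Over all genes edgeR passed 0 to 9 in a cluster, DESeq2 20 to 280, no filter 8 to 577, and fits without 1 library 0 to 96, the latter in cluster 4 without mandible replicate 1.

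The replicate numbers of the titles did not pair the libraries: deviations from the group means correlated between -0.398 and 0.181 for the same number, and 1 to 3 of 6 libraries correlated best with their own. With that number as a block, 0 members passed, where 0.00814% to 0.219% of all genes in a cluster passed. A number in the library names, 6 or 7, is shared by 4 male libraries, and the labels do not say what it marks (correlations 0.003 to 0.501). The fit to these 4 libraries with it as a block leaves out femur replicate 1 and mandible replicate 3, and either omission alone turned Il1r2 in clusters 1 and 2. In it 3, 2, 3, 2, 1 and 1 members passed in clusters 0, 1, 2, 3, 4 and 7, and over all genes 5 to 1587 passed, between 0.0361% and 14.1% of those tested in a cluster. The counts over all genes were 573, 1587, 1268 and 499 in clusters 0, 1, 2 and 3. Il1r2 then passed as higher in the mandible in clusters 0, 1, 2 and 3 (log2 fold changes 0.79, 0.55, 0.60 and 0.82, edgeR adjusted p 9.4e-04, 0.0030, 0.0019 and 3.0e-05), the other calls being Il1b and Il1bos, and directions turned for Il1r2 in clusters 1, 2 and 7 (log2 fold changes 0.55, 0.60 and 0.14), Il1rap in cluster 4 (0.0135) and Il1a in cluster 5 (0.0104). Without the filter Il1rap in cluster 0 turned to -0.0229. Thinned to 1000 UMIs, the share of cells with a UMI differed by -8.367 percentage points for Il1b in cluster 5 and turned to -1.923 for Il1r2 in cluster 2 (mandible minus femur). The cause was not tested.

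Without 1 library, log2 fold changes ranged from 0.09 to 0.55 for Il1r2 in cluster 0, -0.48 to 0.31 in cluster 1, -0.50 to 0.34 in cluster 2, -0.0385 to 0.56 in cluster 3 and -0.20 to 0.31 in cluster 4. They ranged for Il1rn from -0.0083 to 0.21 in cluster 1, -0.0924 to 0.17 in cluster 2 and -0.14 to 0.13 in cluster 3, for Il1rap from -0.13 to 0.10 in cluster 0, -0.19 to 0.32 in cluster 3, -0.25 to 0.0085 in cluster 4 and -0.41 to 0.0026 in cluster 7, and for Il1a in cluster 5 from -0.76 to 0.62. The difference between clusters 5 and 1 ranged from -0.0586 to 0.34 for Il1bos and from -0.0721 to 0.3524 for Il1rap. Il1b stayed between -1.58 and -0.38 and Il1bos between -2.24 and -0.44 over all alternatives. These ranges are a description, because the refits reuse the libraries in which both site differences were known.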

Other observations

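Barcodes that the deposited metadata do not keep made up 18.5% of femur replicate 1 and between 1.88% and 5.14% of the other libraries. In them Il1b measured 925, 196 and 350 CPM in femur replicates 1 to 3 and 240, 194 and 122 CPM in mandible replicates 1 to 3, and the sites overlapped.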
